A study of Mus musculus with 8 samples.

Results

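The 39 genes described here encode the core machinery that builds autophagosomes and the receptors that bring cargo to them. They were chosen by name. Each is a row of the deposited table whose symbol is on a list of initiation, lipid kinase, membrane, conjugation, receptor and fusion factors. That rule uses no measured value, but earlier results of these data were known when the list was chosen. The shares given below therefore do not come from a blind choice. All 39 of 39 were found among the 17492 rows of the table, and all 39 passed the filter on low counts that left 11700 genes for testing. RNA sequencing was done on C57BL/6 mouse bone marrow-derived macrophages, that is, marrow precursors matured into macrophages in a dish. One group of 4 libraries came from medium without serine and glycine (labelled serine deficiency), and the 4 control libraries came from untreated cells in normal medium. The labels do not give the time of deprivation, any stimulus, or whether the libraries of a group are separate cultures or animals, so the p-values measure the spread between these libraries, which may be technical.

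Autophagy encloses cytoplasm in a double membrane that is delivered to the lysosome. The ULK1 kinase complex starts the process, a complex around the lipid kinase VPS34 marks the membrane with phosphatidylinositol phosphate, and ATG2, ATG9 and WIPI proteins supply lipid. A pair of ubiquitin-like conjugation systems then attaches proteins of the ATG8 family (LC3 and GABARAP) to the growing membrane, where cargo receptors such as p62 bind them, and tethers such as EPG5 help the finished autophagosome to fuse with the lysosome. In macrophages parts of the same machinery also act on phagosomes. Shortage of amino acids is a classical trigger of autophagy, largely through proteins already present. Transcript levels, measured here, do not report how much autophagy takes place.

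Library totals lay between 17565300 and 18201600 estimated counts (rounded). Levels are given as CPM, that is, counts scaled to a common library size, here with TMM scaling factors. Macrophage markers were high, with a summed level of 10 genes between 19392 and 19719 CPM in control libraries and between 19809 and 19975 CPM without serine and glycine; 4 of the 10 rose and 6 fell. Markers of T and NK cells, mast cells, erythroid cells and fibroblasts each summed to at most 2.06 CPM in any library. The B cell list summed to between 43.5 and 51.3 CPM in controls and between 32.1 and 38.9 CPM without serine and glycine. Nearly all of it was Cd79b, while Pax5 and Ms4a1 had means of at most 0.209 CPM. The lists for dendritic cells, megakaryocytes and osteoclasts had overlapping ranges, at 1.21 to 1.96, 2.21 to 3.20 and 56.1 to 59.96 CPM in controls against 1.34 to 1.89, 2.63 to 2.94 and 56.7 to 57.5 CPM. The osteoclast sum was mostly Mmp9, at 55.6 CPM in controls (log2 change -0.013, edgeR adjusted p = 0.835). Ctsk of that list, with 9 to 28 counts per library, rose from 0.754 to 1.19 CPM on average (edgeR adjusted p = 0.0452), with no overlap. Ocstamp went the other way, from 0.809 to 0.712 CPM, and did not pass (edgeR adjusted p = 0.653). The neutrophil list summed to between 0.827 and 1.17 CPM in controls and between 2.05 and 2.39 CPM without serine and glycine. One of its 9 genes was tested, S100a8, which rose from 0.755 to 1.87 CPM on average. Camp, Elane and Ly6g were at 0 in every control library, with at most 2 counts in any other. Mpo and Retnlg went the other way, at 0 in every deprived library. S100a9 had means of 0.167 CPM in controls and 0.182 CPM without serine and glycine. In such bulk samples fewer cells of a type and less RNA per cell cannot be told apart, and the part of these differences in the results below was not tested. The trend of each library with transcript length differed between the groups. Its slope, in log2 units per doubling of length and relative to the mean of all libraries, lay between 0.0045 and 0.042 in controls and between -0.058 and 0.00015 without serine and glycine, so that short transcripts read relatively higher in the latter. For the 39 genes, values with this trend removed are given wherever they change a call.

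Without serine and glycine, transcripts of all 5 ATG8 genes, of 4 of 11 conjugation genes and of 3 of 5 cargo receptors rose by small amounts. Optn and Epg5 fell, and of the 17 genes of the earlier steps 2 passed. The number of ATG8 genes that rose was 3 with DESeq2, with the length trend removed, without serine/glycine-free replicate 4 and without control replicate 3. At an adjusted p of 0.01, 3 ATG8 genes and 2 conjugation genes rose. Without serine/glycine-free replicate 3, 2 conjugation genes rose. Of the 39 genes, 12 rose, 4 fell and 23 did not pass an adjusted p of 0.05 (edgeR quasi-likelihood, adjusted over 11700 genes). The share called was 41% among them against 33.2% of all genes tested. The share that rose was 30.8% against 15.9%, and the share that fell was 10.3% against 17.3%. The groups did not overlap for 15 of the 39 genes, or 38.5%, against 30.6% of all genes. The median log2 change was 0.065, beside 0.0074 over all genes, and values ranged from -0.27 to 0.33. Of the 39 genes, 4 (10.3%) were called with a change of at least 1.2-fold, near the 12% of all genes. These were Gabarapl1, Atg10, Sqstm1 and Epg5. None reached 1.5-fold, against 3.09% of all genes.

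**Figure D1:**
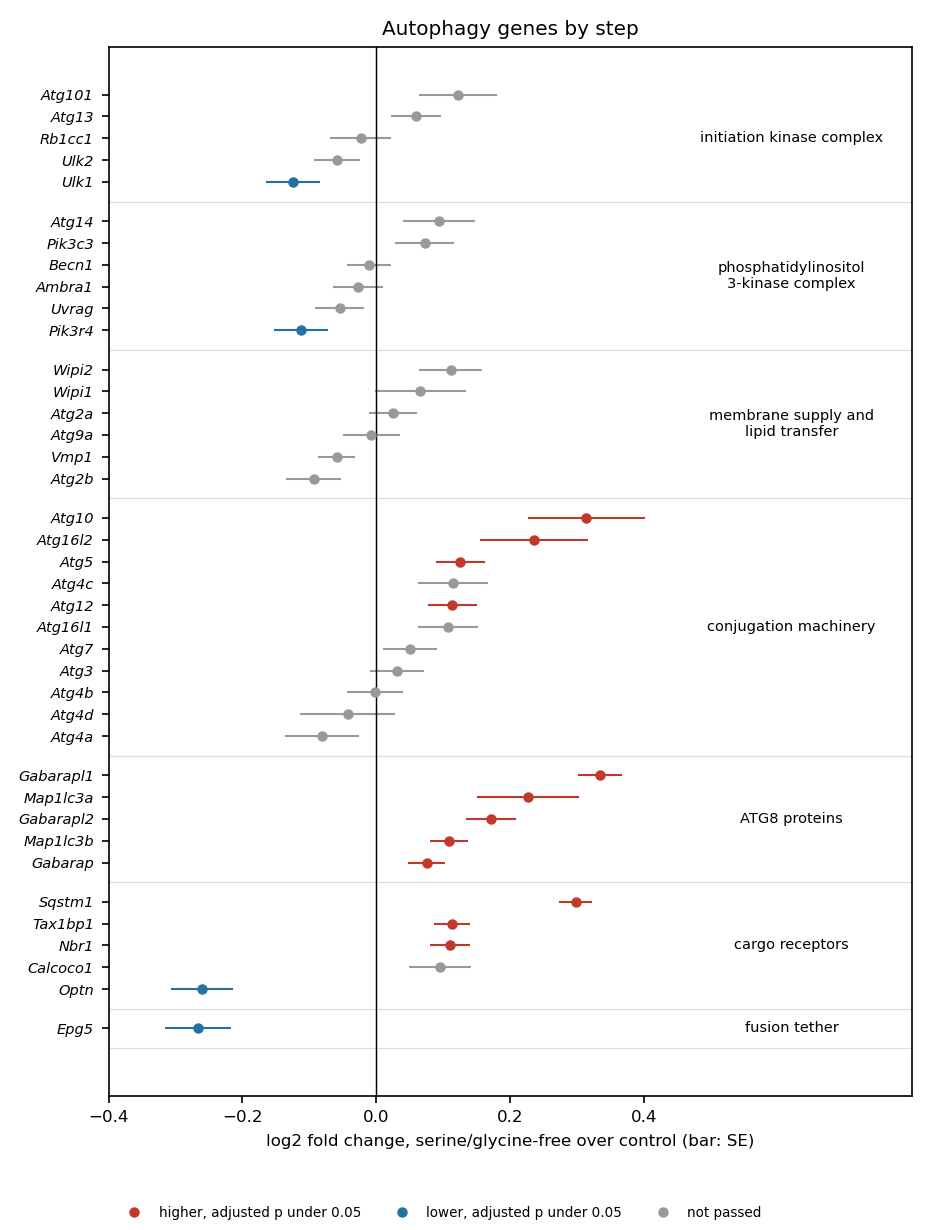
Log2 fold change of each of the 39 genes, serine/glycine-free over control, with bars of 1 standard error, grouped by step. Red and blue points passed an adjusted p of 0.05. The ATG8 and conjugation groups hold red points and no blue ones, and the first 3 groups hold 2 blue points and no red ones.

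Of the 17 genes of the first 3 steps, 0 rose, 2 fell (11.8%) and 15 did not pass, with a median log2 change of -0.011. Of the 22 genes of the later steps, 12 rose (54.5%), 2 fell (9.09%) and 8 did not pass, with a median of 0.11. Over all genes 15.9% rose and 17.3% fell. The first steps also had longer transcripts, with a median effective length of 3704 bases against 2387 bases. After removal of the length trend Wipi2 of the first steps passed as higher (log2 change 0.14, adjusted p = 0.0136). Whether the steps differ from each other was not tested.

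The promoters of 4 genes that rose or fell are shown before the single genes. Gabarapl1 and Sqstm1 had the smallest p among the rises, Optn fell among receptors that rose, and Map1lc3b held a searched motif. Atg5, which also rose, held a searched motif too and is not shown. Each is the RefSeq window of 250 bases before to 50 after a gene start on GRCm38.p6, 5′ to 3′, and capitals mark the motif. Gabarapl1 is from chr6:129532942-129533241, plus strand. Sqstm1 is from chr11:50210771-50211070, minus strand. Map1lc3b is from chr8:121590188-121590487, plus strand. Optn is from chr2:5064068-5064367, minus strand.
Gabarapl1: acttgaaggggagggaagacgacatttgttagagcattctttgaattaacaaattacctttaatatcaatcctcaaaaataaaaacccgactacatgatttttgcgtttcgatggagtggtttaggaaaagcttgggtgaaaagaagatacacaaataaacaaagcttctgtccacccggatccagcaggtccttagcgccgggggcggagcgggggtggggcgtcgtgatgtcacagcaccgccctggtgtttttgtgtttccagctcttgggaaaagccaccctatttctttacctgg
Sqstm1: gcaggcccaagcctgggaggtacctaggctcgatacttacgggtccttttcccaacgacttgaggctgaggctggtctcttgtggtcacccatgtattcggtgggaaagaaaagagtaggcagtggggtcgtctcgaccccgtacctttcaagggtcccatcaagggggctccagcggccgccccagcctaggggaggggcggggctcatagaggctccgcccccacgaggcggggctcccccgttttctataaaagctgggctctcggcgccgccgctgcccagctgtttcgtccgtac
Map1lc3b: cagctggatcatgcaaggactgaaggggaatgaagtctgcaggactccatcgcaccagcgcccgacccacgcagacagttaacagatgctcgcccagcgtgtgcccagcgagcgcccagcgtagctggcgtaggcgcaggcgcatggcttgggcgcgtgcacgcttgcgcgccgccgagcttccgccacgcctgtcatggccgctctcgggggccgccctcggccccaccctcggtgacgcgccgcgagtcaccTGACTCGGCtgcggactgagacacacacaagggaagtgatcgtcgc
Optn: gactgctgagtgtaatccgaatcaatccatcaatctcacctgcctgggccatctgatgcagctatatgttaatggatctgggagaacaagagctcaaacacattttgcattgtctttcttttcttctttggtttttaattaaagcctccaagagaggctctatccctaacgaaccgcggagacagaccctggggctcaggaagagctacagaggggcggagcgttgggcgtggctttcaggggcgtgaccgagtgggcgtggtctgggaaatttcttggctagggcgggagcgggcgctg

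Such a window was matched for 32 of the 39 genes and for 9428 of the genes tested (the first listed window where a gene had several), and both strands were searched. The palindrome CACGTG, the core bound by TFEB and related factors, was in 4 of the 32 windows (Atg3, Atg5, Atg7 and Atg14), or 12.5%, against 10.5% of the 9428 windows. The longer TCACGTGA, which contains CACGTG, was in Atg3 alone, against 2.04%. The antioxidant response element TGACNNNGC, bound by NRF2, was in Map1lc3b, Atg13, Ulk2 and Vmp1, again 12.5%, against 15.1%. The letters GTAAACAA, bound by FOXO factors, were in 0 of the 32 windows, against 0.827%. Gabarapl1, Sqstm1 and Optn held none of these letters in the windows printed above. Only the letters given were searched, so looser forms of the same sites were not counted and may be present. These matches are a description of the windows.

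The initiation kinase complex showed 1 fall and 0 rises among 5 genes, a share called of 20% against 33.2% of all genes. Ulk1, the kinase that starts autophagy, read 67.8, 68.3, 72.3 and 64.5 CPM in the control libraries and 58.6, 66.2, 62.9 and 62.6 CPM without serine and glycine. The groups overlapped: serine/glycine-free replicate 2 lay above the lowest control. The log2 change was -0.12 (SE 0.04, adjusted p = 0.0151), and it did not pass after removal of the length trend (-0.077, adjusted p = 0.116), without serine/glycine-free replicate 1 (adjusted p = 0.0964) or without control replicate 3 (adjusted p = 0.0924). Its paralog Ulk2 stood at -0.059 (adjusted p = 0.197) and had the higher level of both per length, 37.6 ± 1.57 against 24.5 ± 1.26 TPM in controls (SD, n = 4). Atg13 (0.059), Atg101 (0.12) and the scaffold Rb1cc1 (-0.023), which encodes FIP200, did not pass. Atg101 had groups that did not overlap, 17.7 to 19.4 CPM against 19.4 to 20.7 CPM, with the nearest libraries equal to the digits given and an adjusted p of 0.104.

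In the phosphatidylinositol 3-kinase complex, Pik3r4, the regulatory subunit VPS15, was the 1 gene of 6 that passed (16.7%, against 33.2% of all genes). It read 54.5, 52.7, 55.6 and 56.7 CPM in controls and 50.4, 50.6, 49.8 and 52.3 CPM without serine and glycine, with no overlap. The log2 change was -0.11 (SE 0.04, adjusted p = 0.0258). This call was lost after removal of the length trend (-0.070, adjusted p = 0.173), with DESeq2 (adjusted p = 0.0655) and when any of 4 libraries was left out: control replicate 3 (adjusted p = 0.0631) or 4 (0.0889), or serine/glycine-free replicate 1 (0.0576) or 3 (0.0754). The catalytic subunit gene Pik3c3 stood at 0.072 (adjusted p = 0.221) and Atg14, which directs the complex to autophagosome formation, at 0.094 (adjusted p = 0.189). Uvrag, which takes the place of ATG14 in an endosomal form of the complex, stood at -0.055 and the regulator Ambra1 at -0.027. Exons of Gm45187 on the opposite strand cover 17.6% of the exon bases of Uvrag, so that the level of Uvrag may include other reads. Becn1 read between 102 and 106 CPM in controls and between 99.8 and 108 CPM without serine and glycine (-0.011, adjusted p = 0.841). All estimated counts of Becn1 were not whole, and 43.9% of its annotated exon bases lie on the opposite strand from exons of Cntd1, so its level is uncertain. Cntd1 itself had a mean of 0.237 CPM in controls.

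Of 6 genes for membrane supply and lipid transfer, 0 passed in either direction, against 33.2% of all genes. Wipi2, which recruits ATG16L1 to the marked membrane, had the smallest p, with 45.5, 46.2, 39.9 and 40.7 CPM in controls and 46.6, 48.0, 44.3 and 47.2 CPM without serine and glycine. The groups overlapped through control replicates 1 and 2 (log2 change 0.11, SE 0.047, adjusted p = 0.0634). It passed after removal of the length trend, with library size alone (adjusted p = 0.0444), and without control replicate 1 (0.0352), control replicate 2 (0.0226) or serine/glycine-free replicate 3 (0.0449). Values for the lipid transfer gene Atg2b lay between 44.9 and 46.0 CPM in controls and between 42.1 and 43.3 CPM without serine and glycine. Those groups did not overlap, with a log2 change of -0.094 (adjusted p = 0.0776). Vmp1, an endoplasmic reticulum scramblase, went from 248 ± 2.95 to 238 ± 7.81 CPM (SD, n = 4; -0.059, adjusted p = 0.0912), also without overlap. Wipi1 (0.065), Atg2a (0.025) and the scramblase Atg9a (-0.0077) did not pass. The transcript Gm29253 shares 31.8% of the exon bases of Atg9a on the same strand, so that the level of Atg9a is uncertain.

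Among 11 genes of the conjugation machinery, 4 rose, 0 fell and 7 did not pass. The share called was 36.4%, all of it higher, near the 33.2% of all genes called in either direction, of which 15.9% rose and 17.3% fell. Groups did not overlap for 18.2% of these genes, against 30.6% of all genes. All 4 that rose belong to the branch that makes the ATG12-ATG5-ATG16L complex, where 4 of 5 genes rose, while 0 of 5 passed among Atg3 and the ATG4 proteases, which attach and trim ATG8 proteins. A difference between the branches was not tested. Atg5 read 64.9, 62.8, 64.0 and 63.2 CPM in controls and 68.8, 69.5, 71.1 and 68.6 CPM without serine and glycine. The groups did not overlap, and the log2 change was 0.13 (SE 0.036, adjusted p = 0.00566). Its partner Atg12, a ubiquitin-like protein, read 75.1, 78.9, 76.6 and 73.5 CPM in controls and 84.0, 77.6, 84.5 and 82.9 CPM without serine and glycine. Here replicate 2 of the deprived group lay within the control range (0.11, SE 0.036, adjusted p = 0.0131), and leaving out serine/glycine-free replicate 3 (adjusted p = 0.0579) or control replicate 4 (0.0588) ended the call.

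Atg10, the enzyme that joins ATG12 to ATG5, had the largest log2 change of the conjugation genes at a low level. It read 9.62, 8.16, 7.35 and 7.99 CPM in controls and 10.97, 9.32, 10.6 and 10.2 CPM without serine and glycine. The groups overlapped through control replicate 1 and deprived replicate 2 (0.31, SE 0.088, adjusted p = 0.00432). Atg16l2, a homolog of Atg16l1, read 9.34, 8.99, 8.41 and 9.17 CPM in controls and 10.03, 9.99, 10.97 and 11.3 CPM without serine and glycine, with no overlap (0.24, SE 0.081, adjusted p = 0.0211). DESeq2 did not call it (adjusted p = 0.0863), nor did the fits without serine/glycine-free replicate 3 (0.0606) or 4 (0.0729) or without control replicate 3 (0.0729). Atg16l1 itself stood at 0.11 (adjusted p = 0.0647). It passed after removal of the length trend (adjusted p = 0.0298), with library size alone (0.0461), without serine/glycine-free replicate 1 (0.0412) and without control replicate 3 (0.0141).

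The other 6 conjugation genes did not pass, which does not show that they were unchanged. Atg7, the activating enzyme of both branches, went from 66.0 ± 3.59 to 68.4 ± 2.62 CPM (SD, n = 4; 0.050, adjusted p = 0.362). Atg3, which transfers ATG8 proteins to lipid, stood at 0.031 (adjusted p = 0.607). Of the ATG4 proteases, Atg4a stood at -0.082, Atg4b at -0.0017, Atg4c at 0.11 and Atg4d at -0.043, with adjusted p between 0.0898 and 0.981. Atg4c passed when serine/glycine-free replicate 2 was left out (adjusted p = 0.0415). All counts of Atg4d and 12.5% of those of Atg4a were not whole, and 19.3% of the exon bases of Atg4d lie opposite Kri1, so that these levels are uncertain.

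All 5 tested genes of the ATG8 family rose, against 15.9% of all genes. Gabarapl1 changed most, with 78.6, 81.5, 79.1 and 78.7 CPM in controls and 100.2, 99.4, 101 and 101 CPM without serine and glycine. The groups were far apart relative to their spread, and the log2 change was 0.33 (SE 0.033, adjusted p = 2.3e-11), a 1.26-fold rise. It passed under all 17 alternative settings and stood at 0.31 after removal of the length trend. An annotated noncoding transcript on the opposite strand, 1700101I11Rik, covers 28.3% of the exon bases of Gabarapl1. No row of the deposited table carried its symbol, and since the strandedness of counting is unknown, the level of Gabarapl1 may include its reads. Gabarapl2 read 65.8, 63.4, 66.7 and 69.3 CPM in controls and 75.3, 74.5, 75.7 and 73.0 CPM without serine and glycine, with no overlap. Its log2 change was 0.17 (SE 0.037, adjusted p = 0.00023), and 0.10 (adjusted p = 0.0285) with the length trend removed.

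Map1lc3b, which encodes the common autophagosome marker LC3B, read 160.5, 161, 155 and 161 CPM in controls and 172, 169, 169.5 and 177 CPM without serine and glycine. The groups did not overlap, and the log2 change was 0.11 (SE 0.028, adjusted p = 0.00234). Map1lc3a read 11.8, 10.98, 9.70 and 10.5 CPM in controls and 12.4, 12.04, 12.4 and 13.4 CPM without serine and glycine. Its groups also did not overlap (0.23, SE 0.076, adjusted p = 0.0181), but the call was lost with DESeq2 (adjusted p = 0.0736), with the length trend removed (0.0927), without serine/glycine-free replicate 4 (0.0628) and without control replicate 3 (0.0904). Gabarap read between 397 and 423 CPM in controls and between 413 and 456 CPM without serine and glycine, with overlap (0.075, SE 0.028, adjusted p = 0.0336). With the length trend removed it stood at 0.013 (adjusted p = 0.713), and the call was lost with DESeq2 (0.0776) and without any of 5 libraries. These were serine/glycine-free replicate 3 (0.1004) or 4 (0.133) and control replicate 2 (0.138), 3 (0.0817) or 4 (0.0578). The family has short transcripts, with a median effective length of 974 bases against 2635 bases over all genes tested.

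Per unit of length the ATG8 genes spanned a wide range of levels. In controls Gabarap stood at 764 ± 13.7 TPM (SD, n = 4), the highest of all 39 genes, followed by Map1lc3b at 185 ± 2.89, Gabarapl2 at 145 ± 5.32, Gabarapl1 at 88.8 ± 2.19 and Map1lc3a at 21.7 ± 1.59 TPM. No neighbours in this order overlapped across control libraries. Gabarapl1 made up between 7.14% and 7.73% of the family's summed TPM in controls and between 8.32% and 8.80% without serine and glycine, while Gabarap made up between 62.8% and 64.1% and between 60.9% and 62.8%. The share of Map1lc3b lay between 15.05% and 15.8% in controls and between 14.98% and 15.6% without serine and glycine. The order of the 5 genes was therefore the same in both groups, and Gabarapl1 took a larger share in each deprived library than in any control.

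**Figure D2:**
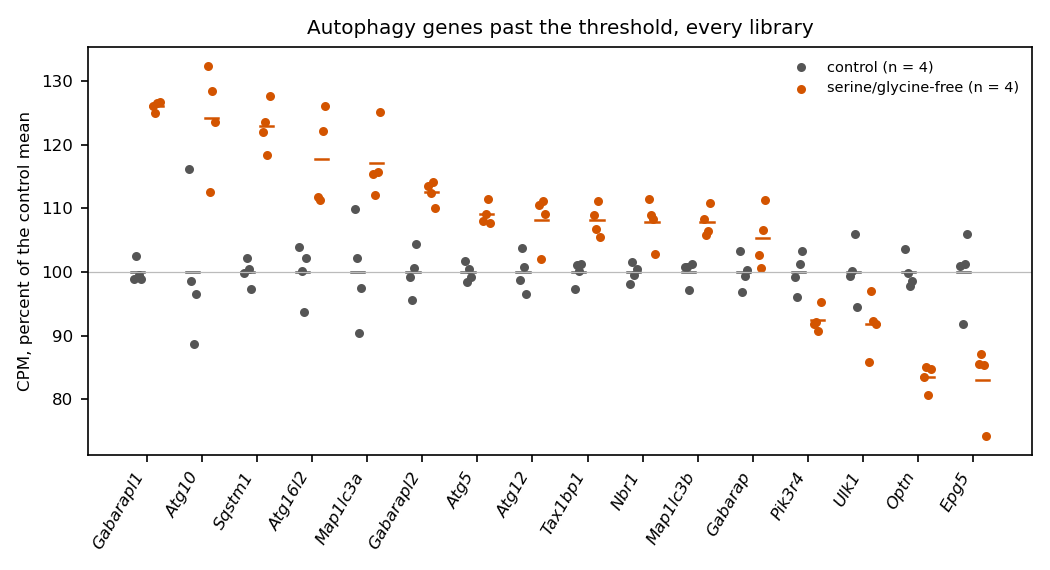
Level of the 16 genes that passed the threshold in every library, in CPM as a percentage of the control mean, ordered by log2 change; points are libraries (4 per group) and short lines are group means. Gabarapl1, Sqstm1, Optn and Epg5 show groups that stand apart, and Atg10, Atg12, Gabarap and Ulk1 show overlapping groups.

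The cargo receptors moved in both directions: of 5 genes, 3 rose, 1 fell and 1 did not pass. Sqstm1, which encodes p62, the receptor for ubiquitinated cargo and a binding partner of the NRF2 inhibitor KEAP1, read 614, 628, 617 and 598 CPM in controls and 749.7, 759, 727 and 784 CPM without serine and glycine. The lowest deprived library lay well above the highest control. The log2 change was 0.30 (SE 0.025, adjusted p = 1.7e-13), a 1.23-fold rise, and lay between 0.28 and 0.32 under the 17 alternative settings, all past the threshold. Exons of Mrnip on the opposite strand cover 17.3% of the exon bases of Sqstm1, so that the level of Sqstm1 may likewise include other reads. Mrnip itself had a mean of 2.11 CPM in controls and 2.30 CPM without serine and glycine. Nbr1, a receptor related to p62, read 140.4, 145, 142 and 144 CPM in controls and 159, 156, 155 and 147 CPM without serine and glycine, with no overlap (0.11, SE 0.03, adjusted p = 0.0033). Tax1bp1 read 243, 252, 249.7 and 252 CPM in controls and 271, 266, 277 and 263 CPM without serine and glycine, also with no overlap (0.11, SE 0.027, adjusted p = 0.00076).

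Optn, which encodes optineurin, a receptor for damaged mitochondria and bacteria, went the other way. It read 39.4, 37.9, 37.2 and 37.5 CPM in controls and 31.7, 32.3, 30.6 and 32.2 CPM without serine and glycine. The groups did not overlap, and the log2 change was -0.26 (SE 0.046, adjusted p = 1.3e-05), with -0.26 also after removal of the length trend. Calcoco1, a receptor for endoplasmic reticulum and Golgi membranes, went from 38.8 ± 1.32 to 41.5 ± 2.34 CPM (SD, n = 4; 0.095, adjusted p = 0.112). Epg5, the tether that joins autophagosomes to late endosomes and lysosomes, read 48.3, 43.9, 48.3 and 50.6 CPM in controls and 40.9, 41.6, 40.8 and 35.4 CPM without serine and glycine. Its groups did not overlap (-0.27, SE 0.049, adjusted p = 4.2e-05). It has the longest transcript of the 39 genes, 8426 bases in effective length, and with the length trend removed its log2 change was -0.19 (adjusted p = 0.00053).

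Sqstm1 dominated the receptor transcripts per unit of length, at 597 ± 15.7 TPM in controls (SD, n = 4), followed by Tax1bp1 at 144 ± 3.75, Nbr1 at 58.4 ± 1.33, Optn at 28.3 ± 0.480 and Calcoco1 at 26.4 ± 1.07 TPM. No neighbours in this order overlapped in controls. Of the summed TPM of the 5 receptors, Sqstm1 made up between 69.1% and 70.3% in controls and between 72.1% and 74.0% without serine and glycine. Optn made up between 3.23% and 3.40% and between 2.31% and 2.41%, so that it ranked below Calcoco1 in the deprived group (23.3 ± 0.833 against 27.5 ± 1.08 TPM). Nbr1 and Tax1bp1 rose in level but took smaller shares, from between 6.75% and 6.98% to between 5.84% and 6.501% and from between 16.6% and 17.4% to between 14.8% and 16.4%. Over all 39 genes, per-length levels in controls ran from 6.55 TPM for Atg16l2 to 764 TPM for Gabarap, with a median of 26.4 TPM against 20.5 TPM for all genes tested. Of the 38 neighbouring pairs in that order, 23 overlapped across control libraries.

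**Figure D3:**
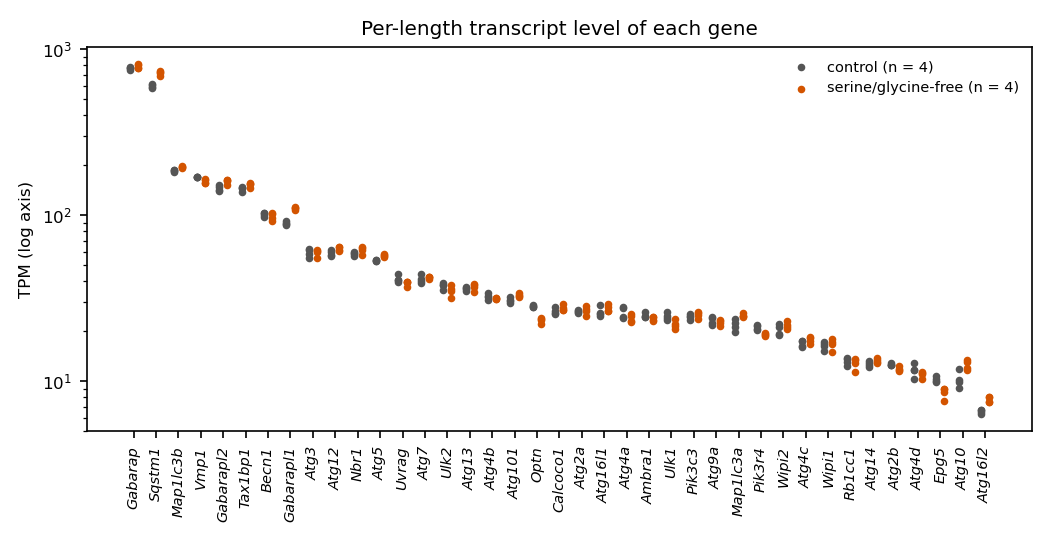
Per-length level (TPM, log axis) of the 39 genes in each library, ordered by the control mean, with 4 libraries per group side by side. Gabarap and Sqstm1 stand apart from the rest at 764 and 597 TPM in controls, and most genes lie below 100.8 TPM, the level of Becn1.

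The length of the transcripts moved with the direction of the calls. The 12 genes that rose had a median effective length of 1747 bases, the 4 that fell 4898 bases and the 23 that did not pass 2938 bases. With each library's trend with length removed, 12 of the 39 genes were higher and 2 lower, but not the same ones: Gabarap and Map1lc3a no longer passed and Wipi2 and Atg16l1 did, and of the falls Optn and Epg5 passed. The median log2 change of the 39 genes was 0.068 after removal, against 0.0063 over all genes. The 10 genes Sqstm1, Gabarapl1, Gabarapl2, Map1lc3b, Nbr1, Tax1bp1, Atg5, Atg10, Optn and Epg5 kept their direction and their call under each of the 17 alternatives.

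**Figure D4:**
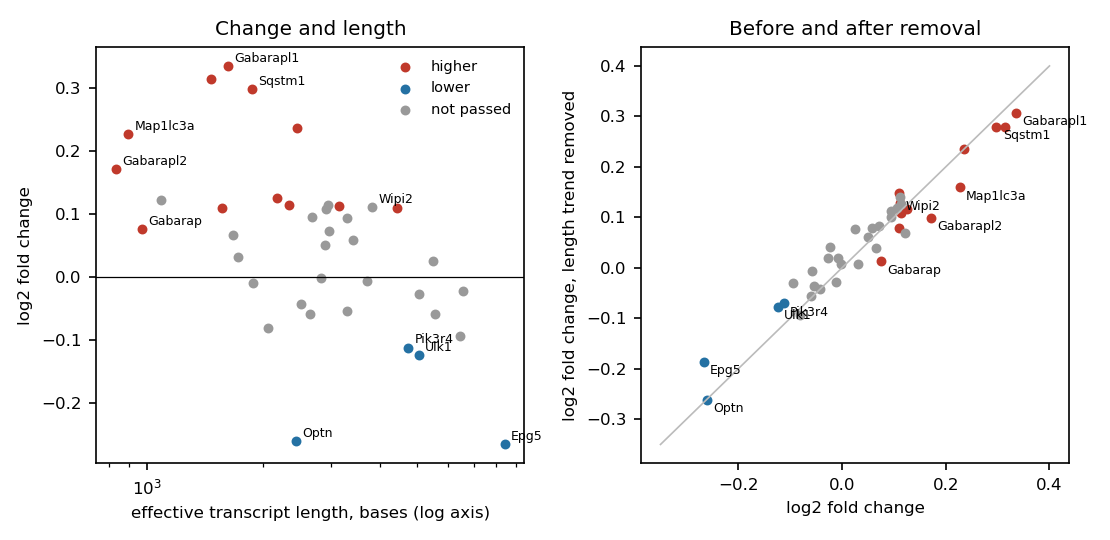
Left, log2 fold change against effective transcript length (bases, log axis) for the 39 genes; right, log2 fold change before and after removal of each library's length trend, with the line of equality. Red and blue mark genes that passed as higher and lower before removal. Gabarap moves from 0.075 to 0.013 and Epg5 from -0.27 to -0.19, while Optn and Sqstm1 stay near the line.

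A further list of 45 autophagy genes outside the core set was read in the same fit. Of these, 14 rose, 8 fell and 23 did not pass, so that 48.9% were called against 33.2% of all genes, 31.1% higher and 17.8% lower. Among 13 other selective receptors, 7 rose (53.8%) and 1 fell (7.69%), against 15.9% and 17.3% of all genes. Bnip3l, a mitophagy receptor of the outer mitochondrial membrane, read between 116 and 120.5 CPM in controls and between 133 and 145 CPM without serine and glycine (log2 change 0.22, SE 0.031, adjusted p = 1.6e-07). Wdr81, a partner of p62 at ubiquitinated cargo, was the 1 that fell, from 211 ± 4.25 to 187 ± 5.88 CPM (SD, n = 4; -0.18, adjusted p = 2.5e-06), and stood at -0.11 with the length trend removed (adjusted p = 0.00079). Among the 7 that rose, Tex264 did not pass with the length trend removed (adjusted p = 0.0795), and Ncoa4, the ferritin receptor, lost its call in 10 of 17 alternatives. Among 12 genes of fusion with the lysosome, 2 rose, 2 fell and 8 did not pass, so that 33.3% were called, near the 33.2% of all genes. Both rises were fragile: Rab7 lost its call in 11 of 17 alternatives, among them the removal of the length trend (log2 change 0.048, adjusted p = 0.0803), and Ykt6 in 7 of 17.

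Of the 6 genes with the smallest p in that list, 4 regulate the process. Dapk1, a kinase that phosphorylates beclin 1, rose from a mean of 23.1 ± 1.76 CPM in controls to one of 36.8 ± 1.77 CPM (SD, n = 4), a log2 change of 0.67 with SE 0.054 (adjusted p = 7.2e-14). Rubcn, which encodes rubicon, an inhibitor of the endosomal lipid kinase complex that is required for LC3-associated phagocytosis, fell from 104 ± 2.09 to 82.8 ± 3.18 CPM (-0.33, SE 0.034, adjusted p = 6.9e-11). Foxo3, a transcription factor known to induce autophagy genes in mouse muscle, fell from 115 ± 2.35 to 92.4 ± 2.77 CPM (-0.32, SE 0.032, adjusted p = 7.5e-11). Trp53inp1, a stress protein that binds ATG8 proteins, fell from 137 ± 5.68 to 115 ± 3.29 CPM (-0.25, SE 0.032, adjusted p = 2.8e-08). In each of these 6 genes the groups did not overlap, which their choice by smallest p makes likely. Over the further list 40% of genes had no overlap, against 30.6% of all genes.

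The positions on GRCm38.p6 of the 5 genes with the smallest adjusted p are as follows, each annotated as protein-coding. Sqstm1 (Entrez 18412) is on chromosome 11 at 50200152 to 50210820, and Gabarapl1 (57436) on chromosome 6 at 129533192 to 129542331. Gabarapl2 (93739) is on chromosome 8 at 111940703 to 111952915. Optn (71648) is on chromosome 2 at 5020521 to 5064399. Epg5 (100502841) is on chromosome 18 at 77938409 to 78037325.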

How the data were processed

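The authors deposited, for each of 8 libraries, estimated counts, FPKM and TPM per gene. Per the labels' protocols, oligo-dT beads selected the RNA. The submitters' processing notes list RSEM, Bowtie2, BWA and the build GRCm38.p6. Tool versions and strandedness: not given in the sources used here. Deposited estimated counts (8.06% to 8.47% of values per library not whole at a tolerance of 1e-06) were rounded and tested. FPKM values by the authors gave effective lengths. TPM values by the authors were used only for levels and shares, and their median log2 ratio between groups was -0.024 over 11700 genes.

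Low genes were removed by filterByExpr (count of 10, total of 15), and the rest were scaled by TMM and tested across all genes with edgeR 4.0.16 in R 4.3.3 (quasi-likelihood F test, robust, 6 residual degrees of freedom, Benjamini-Hochberg adjustment, threshold 0.05). A count of 0 allows up to 3 counts, 0.164 to 0.171 CPM, for counting error only. The edgeR fits, with and without the replicate block or the removal of the length trend, and the limma fit were tried on simulated counts. DESeq2 was not. The alternatives used DESeq2 1.42.0 and limma 3.58.1, and removed each library's linear trend with log2 length by offsets. Coordinates, promoters and exon overlaps come from RefSeq and GENCODE tables of the same build.

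The genes, lists and alternatives were chosen with earlier results of these data known, although the rule for the core genes was a list of symbols. Library values were given for the 14 genes with the smallest adjusted p and for the smallest in any step without one, and the 6 smallest of the further list were named.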

Additional observations from a re-analysis of the deposited data

Results flagged for a closer look

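In 6 of 78 sets of 4 libraries (39 genes in each group), 1 library stood apart from the other three by Dixon's criterion, which chance meets in about 1 set of 20. Control replicate 3 did so for 3 genes. It read 79.8 CPM for Uvrag against 72.7 to 73.3 CPM in the other controls, 72.2 CPM for Ambra1 against 67.3 to 68.0 CPM, and 154.7 CPM for Map1lc3b against 160.5 to 161 CPM. Without it the log2 change was -0.023 for Uvrag, -0.0039 for Ambra1 and 0.095 for Map1lc3b (edgeR adjusted p = 0.0169, still past the threshold). Serine/glycine-free replicate 4 did so for 2 genes, with 45.0 CPM for Calcoco1 against 40.2 to 40.4 CPM in the others and 35.4 CPM for Epg5 against 40.8 to 41.6 CPM. Without it Calcoco1 stood at 0.055 and Epg5 at -0.22 (edgeR adjusted p = 0.00016). Serine/glycine-free replicate 3 read 13.5 CPM for Atg4d against 16.0 to 16.1 CPM, and without it the log2 change was 0.014.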

How the results depend on the processing

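Under 17 alternatives each, the 16 called genes kept their direction in all 272 values and their call in 240, and the 32 losses lay in 6 genes (Ulk1, Pik3r4, Atg12, Atg16l2, Map1lc3a and Gabarap). The alternative with an adjusted p of 0.01 reused the main log2 changes, so no direction could turn there. The number of genes that fell was 2 at an adjusted p of 0.01 and 2 with the length trend removed, against 4, and 2 to 4 when 1 library was left out; the number that rose was 9 to 13 when 1 library was left out and 8 to 14 otherwise. Of the further list, 8 rose at an adjusted p of 0.01, against 14, and 9 to 12 when 1 library was left out. Signs turned only for genes that did not pass. With the length trend removed, Rb1cc1 stood at 0.041, Ambra1 at 0.020, Atg9a at 0.019 and Atg4b at 0.0069. With library size alone Atg9a stood at 0.0013 and Atg4b at 0.0073, and at a mean of at least 5 CPM Atg4b stood at 0.00097. With 1 library left out the ranges were -0.054 to 0.018 for Rb1cc1, -0.031 to 0.0079 for Becn1, -0.030 to 0.014 for Atg9a, -0.029 to 0.026 for Atg4b and -0.10 to 0.014 for Atg4d. The cause of these turns was not tested. Same-numbered libraries did not deviate together (r from -0.094 to 0.061), and with the replicate number as a block 12 genes rose and 4 fell, as without it. The order of per-length levels on counts per kilobase had 33 of 39 ranks equal and none shifted by more than 1.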

Other observations

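The HOPS complex, which tethers autophagosomes and late endosomes to lysosomes, was chosen after its values were seen. Of its 6 subunit genes on the further list, 2 fell and 4 did not pass, a share called of 33.3% beside 33.2% of all genes. Vps33a had 167 ± 6.73 CPM in controls and 150.5 ± 2.61 CPM without serine and glycine (SD, n = 4; log2 change -0.15, edgeR adjusted p = 0.00010) and Vps11 had 119.5 ± 1.81 and 109.3 ± 2.92 CPM (-0.13, edgeR adjusted p = 0.0011), both without overlap. Vps16, Vps18, Vps39 and Vps41 stood between 0.0051 and 0.066. The receptors for endoplasmic reticulum on that list were also chosen after their values were seen. Retreg1 rose by 0.16, Ccpg1 by 0.13, Sec62 by 0.12 and Tex264 by 0.11 on the log2 scale, while Rtn3 stood at 0.0086 (edgeR adjusted p = 0.824). Over all genes 15.9% rose, and a group picked in this way cannot be set against that share. With the length trend removed Tex264 did not pass (0.074, edgeR adjusted p = 0.0795), nor did it without control replicate 2 (0.0774) or 3 (0.0630). All counts of Ccpg1 were not whole, so its level is uncertain. Bnip3, the mitophagy receptor related to Bnip3l, rose from 35.7 ± 1.23 to 42.6 ± 2.27 CPM (SD, n = 4; 0.25, edgeR adjusted p = 2.7e-05). Wdfy3, which encodes the aggregate adaptor ALFY, fell from 499 ± 26.6 to 394 ± 19.7 CPM (SD, n = 4; -0.34, edgeR adjusted p = 1.9e-05), or by 0.23 on the log2 scale with the length trend removed, and was chosen after its value was seen.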
